A study of Mus musculus with 17 samples.

Results

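The C/EBP family was examined as 5 genes, Cebpa, Cebpb, Cebpd, Cebpe and Cebpg, which are the rows of the deposited expression table with these symbols, out of 24453 gene models. RNA was measured by polyA RNA-seq in 13 of the 17 samples of a study of AP-1 factors in mouse macrophages, and values were RPKM, reads scaled to exon length and to the mapped reads of the library. The study's 4 nascent RNA samples were not analysed here. Immortalized bone marrow-derived macrophages (iBMDMs) came from C57Bl/6EiJ bone marrow transformed with mutant BRAF and Myc, and all of them were vehicle-labelled and expressed Cas9. They were labelled as Scramble control (zsGreen in the titles), or as knockouts of Atf3 (Atf3KO), Jun (JunKO) or Jund (JunDKO) made with a virus that carried 2 CRISPR guides, with 2 libraries in each of the 4 groups. Infected cells were sorted on a viral reporter, and the methods describe no single-cell cloning of the lines. Thioglycollate-elicited macrophages (TGEMs) are primary peritoneal cells, here from 8-week-old male C57Bl/6EiJ or Balb/cJ mice, that received PBS vehicle or 100 ng/mL Kdo2 lipid A (KLA), which activates TLR4, for 1 h. Strain names are those of the labels. The methods, which give age and sex, name C57Bl/6J mice where the labels read C57Bl/6EiJ. There was 1 vehicle and 1 KLA library of C57Bl/6EiJ, and 1 vehicle and 2 KLA libraries of Balb/cJ.

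C/EBP proteins are basic leucine zipper (bZIP) factors that bind DNA as dimers with each other and with some relatives of the ATF family. C/EBPα commits myeloid progenitors and holds many cells out of the cell cycle, C/EBPβ is needed for full macrophage activation, and C/EBPδ is known as a factor whose gene is switched on by cytokines and bacterial products. C/EBPε acts late in granulocyte maturation, and C/EBPγ lacks a typical activation domain and serves as a dimer partner, in many settings as an inhibitor of its relatives.

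Cebpa, Cebpb and Cebpd are intronless genes (positions on GRCm38, the mm10 build). Cebpa lay at chr7:35119293-35121928 on the plus strand, Cebpb at chr2:167688915-167690432 on the plus strand, Cebpd at chr16:15887286-15889545 on the plus strand, Cebpe at chr14:54710363-54712174 on the minus strand and Cebpg at chr7:35046422-35056566 on the minus strand. Cebpa and Cebpg are neighbours, 62726 bases apart on chromosome 7. The end of Cebpd overlaps the last 321 bases of Spidr, a DNA repair gene on the other strand. The file header names no strand option, so reads in that overlap cannot be assigned to one of these genes.

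The promoters are shown because members that moved with the AP-1 knockouts can be read against the letters at their starts. The table of RefSeq promoters used here (GRCm38.p6), with 300-base windows from 250 bases before the first base of the gene to 50 after it, matched 3 of the 5 genes, Cebpa, Cebpb and Cebpg, and the promoters of Cebpd and Cebpe were not analysed here. Capitals mark every match, on either strand, to the AP-1 site TGANTCA, the cyclic AMP response element TGACGTCA, its half-site TGACG, the C/EBP site TTGCNNAA, the CCAAT box CCAAT and the TATA box TATAAA. The full element TGACGTCA holds the half-site within it.
Cebpa, chr7:35119043-35119342, plus strand: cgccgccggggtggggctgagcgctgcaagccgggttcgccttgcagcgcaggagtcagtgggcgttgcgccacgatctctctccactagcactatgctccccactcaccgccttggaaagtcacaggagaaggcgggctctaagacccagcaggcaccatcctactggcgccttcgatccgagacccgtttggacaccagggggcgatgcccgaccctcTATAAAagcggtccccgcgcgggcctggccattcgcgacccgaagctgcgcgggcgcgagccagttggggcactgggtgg
Cebpb, chr2:167688665-167688964, plus strand: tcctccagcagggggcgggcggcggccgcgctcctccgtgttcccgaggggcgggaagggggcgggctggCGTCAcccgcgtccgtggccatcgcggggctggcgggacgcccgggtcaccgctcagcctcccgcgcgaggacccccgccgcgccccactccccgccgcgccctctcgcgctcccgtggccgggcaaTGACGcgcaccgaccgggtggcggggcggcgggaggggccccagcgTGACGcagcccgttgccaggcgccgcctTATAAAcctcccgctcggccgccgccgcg
Cebpg, chr7:35056517-35056816, minus strand: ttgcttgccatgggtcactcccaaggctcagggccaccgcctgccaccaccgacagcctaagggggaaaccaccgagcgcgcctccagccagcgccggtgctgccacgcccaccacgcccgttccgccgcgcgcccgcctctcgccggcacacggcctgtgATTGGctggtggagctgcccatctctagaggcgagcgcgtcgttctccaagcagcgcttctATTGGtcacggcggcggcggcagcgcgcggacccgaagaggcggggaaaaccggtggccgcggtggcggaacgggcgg
The Cebpb window held 3 half-sites TGACG, starting 180, 53 and 7 bases before the gene's first base, of which the farthest is on the other strand and reads CGTCA. Such a half-site occurred in 20.8% of the 32851 promoter windows of the table. The Cebpg window held 2 CCAAT boxes on the other strand (ATTGG), starting 89 and 28 bases before the first base, and a CCAAT box occurred in 37.4% of windows. A TATA box, found in 13.6% of windows, started 30 bases before the first base of Cebpa, and 21 bases after the annotated first base of Cebpb. None of the 3 windows held the letters TGANTCA (7.81% of windows), TGACGTCA (1.79%) or TTGCNNAA (10.8%). The windows were rich in G and C, at 67.3% in Cebpa, 80.7% in Cebpb and 71.7% in Cebpg.

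Depth ranged from 1553296 to 18444436 mapped reads, the JunDKO replicates being the shallowest and the deepest library. Reads fell on 10425 and 10631 gene models in Atf3KO, against 11884 to 12533 in the other iBMDM libraries, and Atf3KO replicate 2 is the only iBMDM library with another label date than the rest. Atf3 itself stood at 154 and 169 RPKM under the Atf3KO label and at 80.7 and 77.4 RPKM in Scramble, Jun 26.2 and 20.5 in JunKO against 17.6 and 18.5, and Jund 6.94 and 6.07 in JunDKO against 9.19 and 8.33. The RNA level of the targeted gene is no check of a CRISPR edit that leaves the transcript in place, and protein, which the study examined by western blotting, is not measured here. Neither Atf3 nor Jun RNA was lower where the gene was labelled as knocked out, and Atf3KO, JunKO and JunDKO stand throughout for the libraries labelled so. All 7 macrophage markers had reads in every library. Of 6 neutrophil markers, none had a read in iBMDMs, and in TGEMs their summed level was at most 0.824 RPKM. TGEM libraries also held RNA of other cells, with 3 B cell markers summing to 4.31 to 14.7 RPKM and 4 mesothelial or fibroblast markers to 15.7 to 30.4 RPKM, against at most 0.488 and 0.106 in iBMDMs. In bulk RNA, fewer cells of a type cannot be told apart from less RNA per cell.

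A gene was called at a limma-trend adjusted p under 0.05, a 2-fold change and 16 RPKM or more as the mean of one group or the other, after testing all genes that averaged 1 RPKM or more. Cebpe did not reach that mean in any fit, so 4 of the 5 members were tested. Of these, 2 were called in Atf3KO against Scramble (both higher), none in JunKO, 2 in JunDKO (both higher), none after KLA or between strains, and 2 between C57Bl/6EiJ vehicle TGEMs and Scramble iBMDMs (both higher in TGEMs). Of all tested genes, 12.5% were called in Atf3KO (7.84% higher and 4.69% lower), 0.196% in JunKO (0.103% higher and 0.0935% lower) and 4.97% in JunDKO (2.69% higher and 2.27% lower). For KLA 1.13% were called (1.00% higher and 0.126% lower), for strain 1.16%, and between TGEMs and iBMDMs 21.1% (7.89% higher and 13.2% lower). With 4 members, such counts carry little weight against these shares, and the values of each gene follow. Nothing in the labels says that libraries of a group came from separate cultures, so p-values measure the spread between these libraries only.

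**Figure D1:**
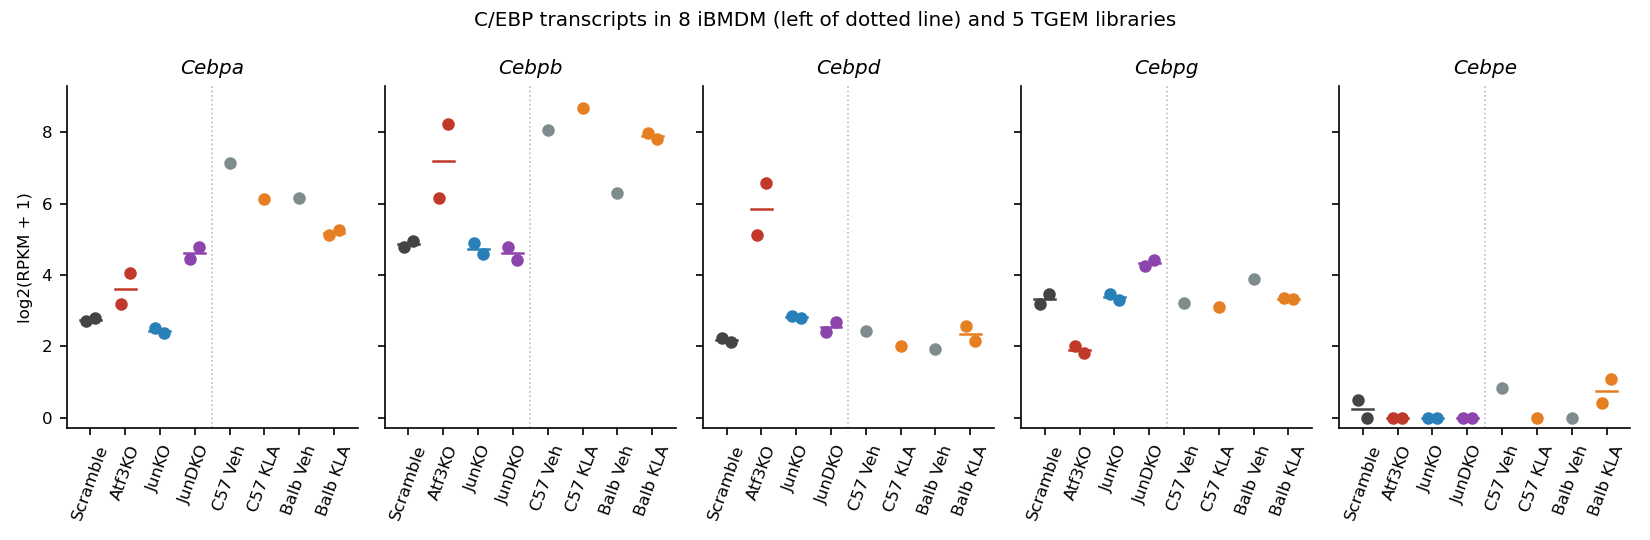
Level of each C/EBP transcript, as log2(RPKM + 1), in each of 13 libraries (points), with iBMDM groups to the left of the dotted line, TGEM groups to the right, and bars for the mean of groups with 2 libraries. Cebpb was the most abundant member in 12 of 13 libraries, Cebpd stood high in the Atf3KO libraries alone, and Cebpe was at or near 0 throughout.

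Cebpa, the gene of the myeloid commitment factor, was a TGEM transcript first and an iBMDM transcript second. It measured 5.51 and 5.99 RPKM in the Scramble libraries, 4.68 and 4.21 in JunKO, 8.03 and 15.5 in Atf3KO, and 20.8 and 26.8 in JunDKO. In C57Bl/6EiJ TGEMs it measured 139 RPKM with vehicle and 69.1 with KLA, and in Balb/cJ TGEMs 70.0 with vehicle and 33.9 and 37.2 with KLA. Every TGEM library lay above every iBMDM library, both JunDKO libraries lay above the other 6 iBMDM libraries, and KLA libraries lay below the vehicle library of their strain. In JunDKO, Cebpa rose from 5.75 ± 0.340 to 23.8 ± 4.28 RPKM (SD, n = 2 each), which is 1.87 ± 0.30 (SE) on the log2 scale (adjusted p = 0.00573, limma-trend). The median gene moved by 0.24 in that comparison, and with all libraries scaled to equal medians the change of Cebpa was 1.59 (limma-trend adjusted p = 0.0109). The call was lost without Scramble replicate 1 (log2 fold change 1.82, adjusted p = 0.0514, limma-trend) and without JunDKO replicate 2 (1.69, adjusted p = 0.0784). Compared with JunKO directly, JunDKO was higher by 2.18 ± 0.30 on the log2 scale (limma-trend adjusted p = 0.00402), in a comparison that called 3.50% of all genes, and this call too was lost without JunDKO replicate 2 (2.00, adjusted p = 0.0658, limma-trend). In JunKO, the log2 fold change over Scramble was -0.31 ± 0.30 with a 95% interval of -0.99 to 0.37 (limma-trend adjusted p = 0.898).

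In the Atf3KO libraries the Cebpa value depended on how base composition was treated. The mean was 11.8 ± 5.30 RPKM (SD, n = 2), and the log2 fold change of 0.86 ± 0.30 passed the adjusted p (0.0487, limma-trend) but not the 2-fold limit. Fold changes between Atf3KO and Scramble followed GC content across genes, with a Spearman correlation of 0.50, and the difference between the Atf3KO replicates did so too, at 0.66 over 10663 genes that are not independent replicates. Replicate differences followed GC content in the other iBMDM groups as well, at -0.45 in Scramble, -0.47 in JunKO and -0.32 in JunDKO (replicate 2 minus replicate 1 throughout). The exons of Cebpa hold 62.6% G and C, more than 98.7% of the tested gene models. After a correction of each library for GC content the log2 fold change was -0.23 (limma-trend adjusted p = 0.428), so no direction can be given for Cebpa in Atf3KO.

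Cebpb, which encodes the factor best known from activated macrophages, was the most abundant family member in every library except JunDKO replicate 2. It measured 26.7 and 30.1 RPKM in Scramble, 28.6 and 23.1 in JunKO, 26.8 and 20.3 in JunDKO, and 70.1 and 300.3 in Atf3KO. In TGEMs it measured 269 RPKM with vehicle and 408 with KLA in C57Bl/6EiJ, and 78.1 with vehicle and 251 and 224 with KLA in Balb/cJ. The Atf3KO libraries lay above the other iBMDM libraries but 4.28-fold apart, whereas the ranges of Scramble, JunKO and JunDKO overlapped. Cebpb rose from 28.4 ± 2.41 RPKM in Scramble to 185 ± 163 in Atf3KO (SD, n = 2 each), which is 2.32 ± 0.55 (SE) on the log2 scale (adjusted p = 0.0127, limma-trend). Without Atf3KO replicate 2 the change was 1.28 (limma-trend adjusted p = 0.0167) and still called, and without replicate 1 it was 3.36 (adjusted p = 0.00151). The call was lost after the GC correction, where the change was 0.80 (limma-trend adjusted p = 0.0581). It was also lost without Scramble replicate 1 or 2, where the change stayed at 2.24 and 2.40. The exons of Cebpb hold 67.0% G and C, more than 99.8% of tested models, and what part base composition had in its change was tested by that correction alone. In JunKO and JunDKO the log2 fold changes were -0.13 ± 0.55 (95% interval -1.41 to 1.14) and -0.27 ± 0.55 (-1.54 to 1.00), with limma-trend adjusted p = 0.985 and 0.792.

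Cebpd, the most inducible gene of the family by repute, was low in all libraries except those labelled Atf3KO. It measured 33.8 and 94.3 RPKM there. The Scramble libraries held 3.67 and 3.37 RPKM, the JunKO libraries 6.24 and 5.95, and the JunDKO libraries 4.28 and 5.43. In TGEMs it measured 4.39 RPKM with vehicle and 3.00 with KLA in C57Bl/6EiJ, and 2.84 with vehicle and 4.91 and 3.43 with KLA in Balb/cJ. The lower Atf3KO library was 5.41-fold above the highest of the 11 other libraries, which ran from 2.84 to 6.24 RPKM. Cebpd rose from 3.52 ± 0.218 to 64.1 ± 42.8 RPKM (SD, n = 2 each), which is 3.67 ± 0.41 (SE) on the log2 scale (adjusted p = 7.81e-04, limma-trend). The change exceeded that of 99.7% of the tested genes. It was called under all 17 alternatives, with log2 fold changes of 2.86 to 4.40 and adjusted p from 4.86e-04 to 0.0117, and after the GC correction it was 3.37. At 53.7%, the GC content of Cebpd exceeded that of 70.0% of tested models. Spidr, which shares 321 bases with it, measured 19.1 and 16.2 RPKM in Atf3KO and 11.4 and 10.9 in Scramble, so Cebpd was below Spidr in Scramble and above it in Atf3KO. In JunKO, Cebpd values lay above those of Scramble without overlap, at a log2 fold change of 0.65 ± 0.41 that did not pass (95% interval -0.29 to 1.59; limma-trend adjusted p = 0.793), and in JunDKO the change was 0.37 ± 0.41 (-0.58 to 1.31; adjusted p = 0.599).

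Cebpg, whose product pairs with other C/EBP and ATF proteins, was low in Atf3KO and high in JunDKO. It measured 8.05 and 10.1 RPKM in Scramble, 10.1 and 8.82 in JunKO, 18.2 and 20.3 in JunDKO, and 3.00 and 2.53 in Atf3KO. In TGEMs it measured 8.27 RPKM with vehicle and 7.52 with KLA in C57Bl/6EiJ, and 13.7 with vehicle and 9.32 and 8.96 with KLA in Balb/cJ. The 3 levels of iBMDMs did not overlap, with Atf3KO lowest, Scramble and JunKO together in the middle and JunDKO on top. In JunDKO Cebpg rose from 9.06 ± 1.43 to 19.3 ± 1.47 RPKM (SD, n = 2 each), which is 1.02 ± 0.21 (SE) on the log2 scale (adjusted p = 0.0177, limma-trend), just past the 2-fold limit. That call was lost in 9 of 17 alternatives, including each of the 4 that left out a library (adjusted p from 0.0581 to 0.143) and the scaling to equal medians (0.73, adjusted p = 0.0713, limma-trend). The lowest log2 fold change over the 17 was 0.73. Against JunKO the JunDKO libraries were higher by 0.95 ± 0.21 (limma-trend adjusted p = 0.0292), short of 2-fold.

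In Atf3KO, Cebpg was at 2.77 ± 0.333 RPKM (SD, n = 2), 0.305 times its Scramble mean. The log2 fold change was -1.41 ± 0.21 (SE; limma-trend adjusted p = 0.00215), and the gene was not called because neither mean reached 16 RPKM. The direction held in all 17 alternatives, with log2 fold changes of -1.72 to -0.85 and adjusted p up to 0.0222, and after the GC correction it was -0.89 (adjusted p = 0.00611). At 43.2%, Cebpg had the lowest GC content of the family, above that of 15.5% of tested models. In JunKO the log2 fold change was 0.06 ± 0.21 (95% interval -0.42 to 0.54; limma-trend adjusted p = 0.981).

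Cebpe, the granulocyte gene, had 1 read in the 8 iBMDM libraries together, in Scramble replicate 1. The deepest iBMDM library, JunDKO replicate 2, had 0 reads, which allows a level of up to 0.132 RPKM (3 reads, counting error only). Among TGEMs it had 11 reads in C57Bl/6EiJ vehicle (0.782 RPKM, exact Poisson 95% interval 0.390 to 1.40) and 7 and 9 reads in the Balb/cJ KLA libraries (0.329 and 1.11 RPKM). The C57Bl/6EiJ KLA and Balb/cJ vehicle libraries had 0 reads, which allows up to 0.747 and 1.04 RPKM (3 reads each), and Cebpe was too low to be tested for KLA or strain. Camp, an antimicrobial peptide gene of the granule list, had 0 reads in every library, and 4 to 8 of the 10 granule genes were at 0 in a TGEM library and 6 to 8 in an iBMDM library.

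**Figure D2:**
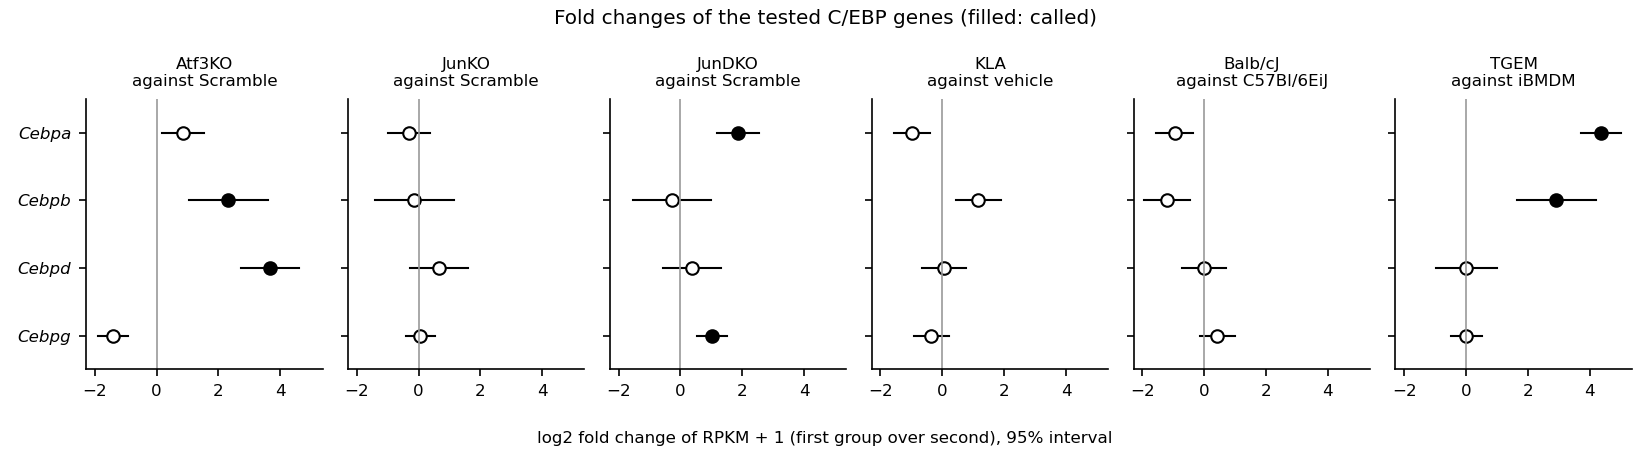
Log2 fold change on the log2(RPKM + 1) scale (points, filled where called) with limma-trend 95% intervals for the 4 tested C/EBP genes in 6 comparisons, each as the first group over the second. In Atf3KO, Cebpd reached 3.67 and Cebpb 2.32 while Cebpg lay at -1.41, in JunDKO Cebpa lay at 1.87 and Cebpg at 1.02, and all 4 intervals of JunKO cross 0.

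Whether the knockouts differed from each other was tested directly, since each was compared with the same Scramble libraries. Atf3KO differed from JunDKO in all 4 tested members, where 12.2% of all genes were called. Cebpb was higher in Atf3KO by 2.59 ± 0.55 and Cebpd by 3.30 ± 0.41 on the log2 scale, and Cebpa was lower at -1.01 ± 0.30 and Cebpg lower at -2.43 ± 0.21 (limma-trend adjusted p = 0.00787, 8.21e-04, 0.0274 and 2.16e-04). The Cebpd and Cebpg calls were kept in all 17 alternatives, the Cebpb call in 16, and the Cebpa call was lost in 9. Between Atf3KO and JunKO, where 9.71% of genes were called, Cebpb (2.45 ± 0.55, adjusted p = 0.0123) and Cebpd (3.02 ± 0.41, adjusted p = 0.00208) were called by limma-trend. Cebpa (1.17 ± 0.30, adjusted p = 0.0190) and Cebpg (-1.47 ± 0.21, adjusted p = 0.00239) passed the limma-trend p and the 2-fold limit there but had less than 16 RPKM in both groups. After the GC correction the Cebpa difference between Atf3KO and JunKO was 0.20 (limma-trend adjusted p = 0.510), and Cebpb differed by 1.04 from JunKO and by 1.36 from JunDKO. Against JunDKO, Cebpa and Cebpg were both at -1.79 after it. The size of the Cebpb and Cebpd differences depended on the Atf3KO replicate, and each was called without either one. Without replicate 1 and without replicate 2, Cebpb was 3.63 and 1.55 above JunDKO and 3.49 and 1.41 above JunKO. Cebpd was 4.03 and 2.58 above JunDKO and 3.75 and 2.29 above JunKO on the log2 scale. Without JunKO replicate 1 or replicate 2, Cebpb was no longer called against JunKO (limma-trend adjusted p = 0.0507 and 0.0894), and 4 of 17 alternatives in all ended that call.

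After 1 h of KLA, Cebpa and Cebpb values moved apart in TGEMs, although neither passed the correction over all genes. KLA libraries held 0.497 times the vehicle level of Cebpa in C57Bl/6EiJ, and 0.484 and 0.532 times in Balb/cJ, where the first pair shares a label date. For Cebpb the KLA level was 1.51 times the vehicle level in C57Bl/6EiJ and 3.22 and 2.87 times in Balb/cJ. Both Balb/cJ ratios of a gene share the 1 Balb/cJ vehicle library, so they are not independent of each other. The log2 fold changes were -0.98 ± 0.25 for Cebpa (SE, 3 KLA and 2 vehicle libraries; limma-trend adjusted p = 0.152) and 1.17 ± 0.31 for Cebpb (adjusted p = 0.168), with 2 residual degrees of freedom. With limma-voom on the recovered reads the adjusted p was 0.0366 for Cebpa, whose change of -0.99 stayed under 2-fold, and 0.0212 for Cebpb, which was then called. Cebpg changed by -0.36 ± 0.24 (adjusted p = 0.505) and Cebpd by 0.05 ± 0.30 (95% interval -0.66 to 0.76; limma-trend adjusted p = 0.950). No gene of the table passed the interaction of KLA and strain (0% called with 1 residual degree of freedom, limma-trend, and 835 of 10357 genes at an unadjusted p under 0.05). For Cebpb that interaction was 1.00 ± 0.55 on the log2 scale, larger in Balb/cJ, and for Cebpd it was 0.85 ± 0.50 (adjusted p = 0.714 and 0.732).

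Between strains, Balb/cJ libraries held less Cebpb and Cebpa than C57Bl/6EiJ libraries of the same treatment, without passing the correction. The log2 differences, Balb/cJ minus C57Bl/6EiJ, were -1.21 ± 0.31 for Cebpb and -0.96 ± 0.25 for Cebpa (SE; limma-trend adjusted p = 0.0969 and 0.0984). With limma-voom on the recovered reads the adjusted p was 0.0111 for Cebpb, which was then called, and 0.0272 for Cebpa, which stayed under 2-fold (-0.97). Of the 7 macrophage markers, 1 was called lower in Balb/cJ, Csf1r (-1.37, limma-trend adjusted p = 0.0483), and the list's median was -0.98, with values from -1.52 (Fcgr1) to 0.44 (Cd68), the one marker above 0. The part of these differences in the Cebpb and Cebpa values was not tested. After the GC correction they were -0.27 and -0.28 (adjusted p = 0.584 and 0.510, limma-trend), and fold changes between strains followed GC content across genes with a Spearman correlation of -0.45. Cebpg differed by 0.43 ± 0.24 and Cebpd by -0.01 ± 0.30 (limma-trend adjusted p = 0.342 and 0.992). No label date holds libraries of both strains, so strain and date cannot be told apart.

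Against Scramble iBMDMs, C57Bl/6EiJ vehicle TGEMs held more Cebpa and Cebpb. The log2 fold change was 4.36 ± 0.30 for Cebpa (SE; limma-trend adjusted p = 2.36e-06) and 2.92 ± 0.57 for Cebpb (adjusted p = 0.00206), in a fit of all 13 libraries. The TGEM side of this contrast is the C57Bl/6EiJ vehicle level that the strain and treatment terms set from all 5 TGEM libraries, of which 1 is C57Bl/6EiJ with vehicle, and the iBMDM side is the 2 Scramble libraries. The median gene moved by -0.28 in this comparison. Cebpa was called in all 15 alternatives and was 3.40 after the GC correction. Cebpb was 1.70 after it (limma-trend adjusted p = 0.00229). Without the C57Bl/6EiJ vehicle library Cebpb was 2.21 and no longer called. In that fit the C57Bl/6EiJ vehicle level was set from the Balb/cJ vehicle library and the strain difference of the KLA libraries. Cebpd (0.01 ± 0.45, 95% interval -0.97 to 1.00) and Cebpg (0.01 ± 0.23, -0.50 to 0.52) gave limma-trend adjusted p = 0.985 and 0.982. After the GC correction Cebpg was 0.76 (limma-trend adjusted p = 0.0133), under 2-fold and not called. The cell kinds differ also in transformation, Cas9, culture and label dates, which cannot be told apart, and TGEM libraries hold the RNA of other cells given above, whose part in these differences was not tested.

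The mixture of C/EBP transcripts in each library is given as shares of their summed RPKM, as a description with no test of the shares. Cebpb made up 60.2% and 60.8% of the summed C/EBP RPKM in Scramble, with 12.4% and 12.1% Cebpa, 18.2% and 20.3% Cebpg and 8.29% and 6.80% Cebpd. In JunKO the shares were 57.7% and 54.9% for Cebpb, 9.42% and 10.0% for Cebpa, 20.4% and 21.0% for Cebpg and 12.6% and 14.1% for Cebpd. In Atf3KO Cebpd held 29.4% and 22.9% of the sum and Cebpg 2.61% and 0.613%. In JunDKO Cebpa, Cebpb and Cebpg were nearly level, with 29.7% and 36.8% Cebpa, 38.2% and 27.9% Cebpb and 26.0% and 27.9% Cebpg. The ratio of Cebpb to Cebpa RPKM was 4.84 and 5.02 in Scramble, 6.12 and 5.49 in JunKO, 8.73 and 19.3 in Atf3KO and 1.29 and 0.758 in JunDKO. In TGEMs it was 1.94 (C57Bl/6EiJ) and 1.11 (Balb/cJ) with vehicle and 5.90 (C57Bl/6EiJ), 7.41 and 6.03 (Balb/cJ) with KLA, so the groups did not overlap. The mean log2 ratio was 2.68 with KLA (n = 3) and 0.56 with vehicle (n = 2), a difference of 2.13. In a two-sided exact permutation test of the absolute difference it was the most extreme of the 10 splits (p = 0.1), so this design cannot reach 0.05. The splits ignored strain and label date. The ratio was computed after the levels were known, so nothing is concluded from that test.

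**Figure D3:**
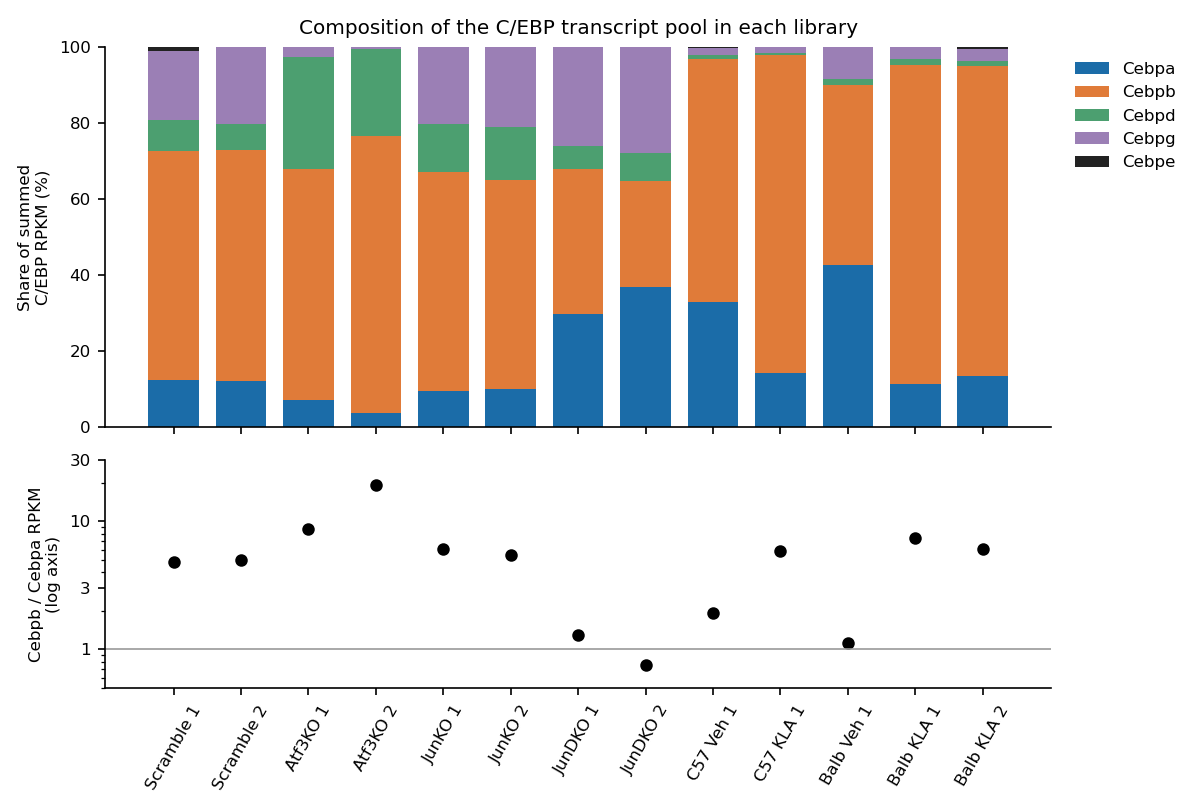
Top, share of each gene in the summed RPKM of the 5 C/EBP genes, in percent, for each of 13 libraries (stacked bars). Bottom, ratio of Cebpb to Cebpa RPKM in the same libraries on a log axis, with a line at 1, which runs from 0.758 in JunDKO replicate 2 to 19.3 in Atf3KO replicate 2.

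Genes around the family were described by 4 lists, with values that are not corrected for GC content. Of 8 bZIP partners and relatives, 7 were tested, and in Atf3KO only Atf5, a stress-response factor, was called. It measured 42.3 and 68.5 RPKM against 27.15 and 23.8 in Scramble (log2 fold change 1.05 ± 0.25, limma-trend adjusted p = 0.0131). Dbp (1.32, adjusted p = 0.00662) and Nfil3 (-1.81, adjusted p = 0.00539) passed the p and the 2-fold limit but not the 16 RPKM minimum. Atf4, the central factor of the integrated stress response (0.77, adjusted p = 0.00979), and Cebpz (-0.70, adjusted p = 0.0340) passed the p and not the 2-fold limit, where Cebpz is a ribosome biogenesis gene that shares only its name with the family. The list's median log2 fold change was 0.77, against 0.05 over all tested genes. No relative passed the adjusted p in JunKO, in JunDKO or after KLA, and in TGEMs against iBMDMs Cebpz was called lower (-1.85, limma-trend adjusted p = 7.56e-04) and Atf4 and Dbp passed the p at 0.97 and 1.09.

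Among 9 regulators of C/EBP genes and proteins, 8 were tested. Trib1, a pseudokinase that delivers C/EBPα to the ubiquitin ligase COP1, was the one called after KLA. It measured 5.13 RPKM with vehicle and 23.6 with KLA in C57Bl/6EiJ, and 1.17 with vehicle and 23.1 and 19.3 with KLA in Balb/cJ. Its log2 fold change was 2.77 ± 0.34 (SE; limma-trend adjusted p = 0.00888). In Atf3KO, Csf2ra, a GM-CSF receptor chain, was called higher (log2 fold change 1.35, limma-trend adjusted p = 0.0437). It measured 133 RPKM in replicate 1 and 324 in replicate 2, against 105 and 62.4 in Scramble. The COP1 gene Rfwd2 was lower (1.14 against 5.06 RPKM, -1.56, adjusted p = 0.0160) and Csf3r, the G-CSF receptor gene, was higher (11.1 against 2.92 RPKM, 1.63, adjusted p = 0.00326), both by limma-trend. Csf3r was also higher in JunDKO, at 14.1 and 12.5 RPKM against 2.53 and 3.31 in Scramble (log2 fold change 1.87 ± 0.27, limma-trend adjusted p = 0.00367), though under 16 RPKM. In TGEMs against iBMDMs Csf3r (2.20) and Csf2ra (1.52) were called higher and Csf1r, the M-CSF receptor gene, lower (-1.32; limma-trend adjusted p = 1.93e-04, 0.0316 and 0.00240), and Il6ra, an interleukin-6 receptor chain, passed the p under 2-fold (0.82, adjusted p = 0.0288). Csf1r was the one regulator called between strains (-1.37, adjusted p = 0.0483).

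The remaining lists hold genes with known C/EBP control. Of 12 inflammatory genes with C/EBP sites, 10 were tested for KLA and 4 were called, all higher, where 1.00% of all tested genes were called higher, with a median log2 fold change of 1.77 against -0.15 over all genes. They were Il1b (7.70), Tnf (7.42), Ptgs2 (3.84) and Cd14 (3.71), with limma-trend adjusted p from 1.44e-04 to 0.0135. In iBMDMs 8 of the 12 were tested. Saa3, an acute-phase gene, was at 1175 and 1172 RPKM in Scramble, 5958 and 6570 in JunKO, 88.3 and 109 in JunDKO, and 3573 and 3599 in Atf3KO, and it was called in all 3 knockouts, higher in Atf3KO and JunKO and lower in JunDKO (1.61, 2.41 and -3.57; limma-trend adjusted p = 6.19e-04, 0.00180 and 1.50e-05). Tnf was called lower in Atf3KO (-2.03, adjusted p = 6.72e-04, limma-trend). Of 10 granule genes, 2 were tested in iBMDMs, and Lcn2, the siderophore-binding lipocalin, was called lower in JunDKO, at 3.05 and 0 RPKM against 1305 and 929 in Scramble (limma-trend adjusted p = 4.83e-05). In Atf3KO it stood at 1123 and 1223 RPKM. In TGEMs Lcn2 was at most 1.37 RPKM and was called lower than in iBMDMs, as were Saa3 (-3.11), the LPS co-receptor gene Cd14 (-2.85) and the lysozyme gene Lyz2 (-1.91), with limma-trend adjusted p from 9.10e-07 to 7.78e-04.

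The lists were also read between knockouts, with the same libraries as above. Atf5 (1.47), Csf2ra (1.68), Saa3 (5.18) and Lcn2 were called higher and Cebpz (-1.04) lower in Atf3KO than in JunDKO, and Dbp (1.89), Nfil3 (-1.81) and Rfwd2 (-1.36) passed the p and the 2-fold limit under 16 RPKM. In Atf3KO against JunKO, Tnf was called lower (-1.51), and Nfil3 (-1.79), Rfwd2 (-1.28), Atf5 (0.82) and Csf3r (0.82) passed the p without a call. Lcn2 and Saa3 (-5.98) were called lower in JunDKO than in JunKO, where Lcn2 stood at 1423 and 1059 RPKM, and Dbp (-1.33) passed the p there. The limma-trend adjusted p in these comparisons ran from 1.88e-06 for Saa3 to 0.0452 for Csf3r.

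Genes with a pattern most like that of a member were sought by Pearson's r of log2(RPKM + 1) over the 13 libraries, with the mean of each cell kind removed, among genes with a mean of at least 16 RPKM. These r describe libraries that share their groups and base composition, and carry no test. For Cebpa the closest were Rnf166 (0.91), Sec14l1 (0.91) and Rassf2 (0.90). For Cebpb they were H2-L (0.96), St6galnac4 (0.95) and Tmem160 (0.95), and for Cebpd Scand1 (0.96), Scly (0.95) and Atf3 itself (0.95). The likeness to Cebpd was one of the iBMDM libraries, since over the 5 TGEM libraries r was 0.22, -0.18 and 0.50 for these 3 genes. For Cebpg they were Fuca2 (0.97), Lin7c (0.97) and Stag2 (0.96).

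**Figure D4:**
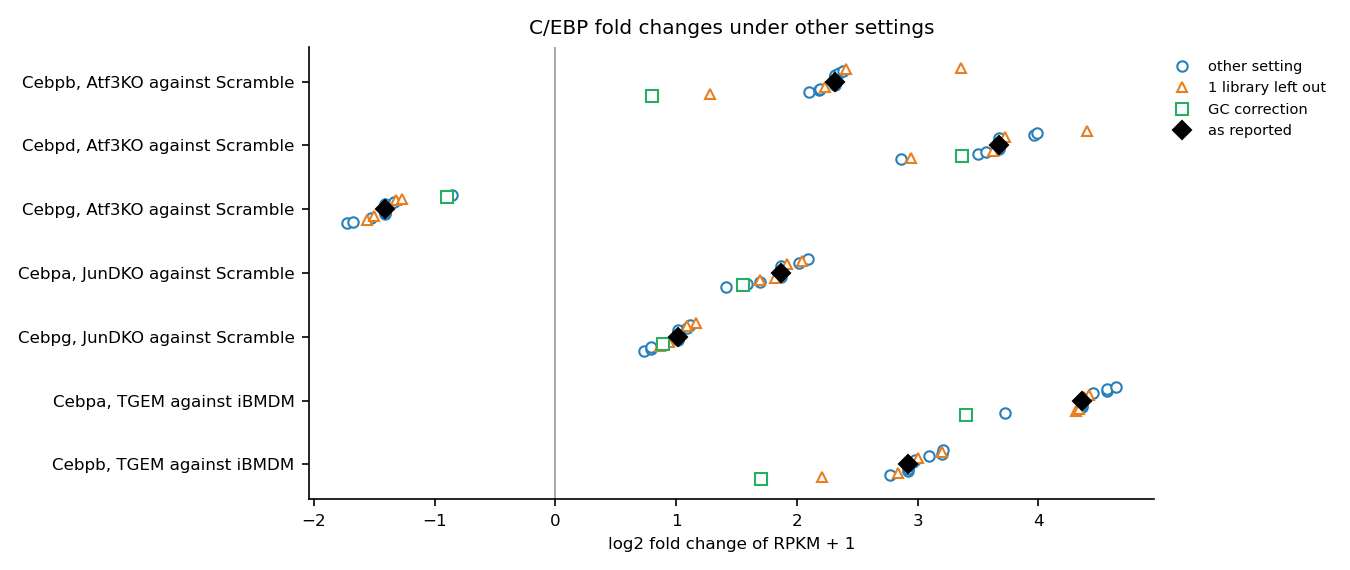
Log2 fold changes of 7 results on C/EBP genes as reported (diamonds) and under other settings (circles), with 1 library left out (triangles) and after GC correction (squares). Among these 7 chosen results no point crosses 0, the Cebpb values of Atf3KO spread from 0.80 to 3.36, and those of Cebpd stay at 2.86 or above. Not shown is Cebpa in Atf3KO, which turned from 0.86 to -0.23 after GC correction.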

How the data were processed

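PolyA RNA-seq RPKM values as deposited by the authors were used for 13 of 17 samples, and 4 GRO-seq samples were not analysed here. Per the labels and the file header, the authors aligned reads with STAR to mm10 and counted exons with HOMER, reporting RPKM, with versions and strand option not given in the sources used here. For the Balb/cJ libraries the methods name a genome of that strain. For their own tests the authors used edgeR.

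RPKM values move in steps of 1 read, from which depth (1553296 to 18444436 reads) and whole reads were recovered, and 100% of values up to 50 reads lay within 0.05 of a whole number. Intervals and limits from reads cover counting error only. Genes averaging 1 RPKM or more in the libraries of a fit entered limma-trend on log2(RPKM + 1), which understates changes of low genes. The fits used 8 iBMDM libraries (4 groups), 5 TGEM libraries (treatment and strain) or all 13, with Benjamini-Hochberg adjustment over all tested genes. A call needed an adjusted p under 0.05, a 2-fold change and 16 RPKM in either group. The GC correction removed from each library a spline with 5 degrees of freedom on exonic GC content, known for 99.5% of models. All 5 members were named in every comparison. Context genes were named if called, or, for partners and regulators, at an adjusted p under 0.05. One called context gene is not reported here. Members, lists and tests were chosen with earlier results of these data known. The fits and the read recovery were tested on simulated data. Alternatives were other pseudocounts, filters, scalings, limits, limma-voom on recovered reads, GC correction, replicate blocks and leaving out each library. The Balb/cJ KLA libraries were numbered in accession order. R 4.3.3 with limma 3.58.1 made the fits, and Python 3.11.15 with pandas 2.3.3, numpy 2.4.6, pysam 0.24.0, scipy 1.17.1 and matplotlib 3.10.9 the rest.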

Additional observations from a re-analysis of the deposited data

Results flagged for a closer look

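Differences between knockouts that were called in their own limma-trend test were singled out, and they are values with no explanation. Cebpa differed between JunDKO and JunKO (log2 difference 2.18, JunDKO minus JunKO), where 3.50% of all genes were called. Between Atf3KO and JunDKO, where 12.2% of all genes were called, all 4 tested members differed (Atf3KO minus JunDKO). Cebpa was at -1.01, Cebpb at 2.59, Cebpd at 3.30 and Cebpg at -2.43. The Cebpa call was lost in 9 of 17 alternatives and the Cebpb call in 1. Between Atf3KO and JunKO, where 9.71% of all genes were called, Cebpb differed by 2.45 and Cebpd by 3.02, and the Cebpb call was lost in 4 of 17 alternatives. No group holds 4 or more libraries, so single libraries could not be tested as outliers.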

How the results depend on the processing

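The number of C/EBP genes called differed from the reported one by more than 1.5 times in 25 of 160 alternative counts, and the causes were not tested. In Atf3KO against Scramble it was 1 (in place of 2) at an adjusted p under 0.01 and after GC correction, and 1 to 2 with 1 library left out. In JunDKO against Scramble it was 1 (in place of 2) with a pseudocount of 5, equal library medians, quantile normalization, an adjusted p under 0.01 and GC correction, and 0 to 1 with 1 library left out. In JunDKO against JunKO it was 2 (in place of 1) with a pseudocount of 0.1 and with limma-voom, and 0 to 1 with 1 library left out. In Atf3KO against JunDKO it was 2 without JunDKO replicate 2. In Atf3KO against JunKO it was 4 (in place of 2) without the 16 RPKM minimum, 1 at an adjusted p under 0.01 or with only the groups compared, and 1 to 2 with 1 library left out. With limma-voom it was 1 (in place of 0) for KLA and 1 for strain, Cebpb in both. Between TGEMs and iBMDMs it was 1 (in place of 2) without the C57Bl/6EiJ vehicle library.

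Signs of single genes turned in 26 of 637 alternative fold changes, all of them uncalled. Cebpa turned to -0.23 in Atf3KO (GC correction) and, in the interaction of KLA and strain, to -0.069 (equal library medians), -0.034 (quantile normalization) and -0.32 (GC correction). In JunKO, with 1 library left out, Cebpg ranged from -0.084 to 0.21 and Cebpb from -0.28 to 0.016. In JunDKO against JunKO, Cebpb ranged from -0.33 to 0.055 with 1 library left out. For KLA, Cebpd turned to -0.025 (limma-voom), and ranged from -0.43 to 0.42 with 1 library left out. Between strains Cebpd turned to 0.072 (equal library medians), 0.10 (quantile normalization), 0.063 (limma-voom) and 0.22 (GC correction), and ranged from -0.49 to 0.36 with 1 library left out. Between TGEMs and iBMDMs, Cebpg turned to -0.026 (limma-voom) and to -0.11 with only Scramble and vehicle TGEM libraries, and ranged from -0.14 to 0.31 with 1 library left out. Cebpd turned there to -0.0035 (GC correction) and ranged from -0.59 to 0.26 with 1 library left out.

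Over all genes, calls ranged from 821 to 3068 in Atf3KO (reported, 1339), 5 to 63 in JunKO (21), 264 to 938 in JunDKO (531), 15 to 228 for KLA (117), 17 to 345 for strain (120) and 0 to 54 for the interaction (0).

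Replicate differences correlated at 0.18 to 0.22 among Scramble, JunKO and JunDKO but at -0.21 to -0.12 between Atf3KO and these groups, so replicate numbers were not taken to pair all iBMDM libraries. The replicate block left the C/EBP genes called at 2 in Atf3KO, 0 in JunKO and 2 in JunDKO against Scramble, and at 1 in JunDKO against JunKO, 4 in Atf3KO against JunDKO and 2 in Atf3KO against JunKO, and it moved the adjusted p of the uncalled Cebpg difference between JunDKO and JunKO from 0.0292 to 0.0558. A block with crossed Atf3KO numbers, chosen after seeing the data, left 2, 4 and 2 in the comparisons with Atf3KO. The TGEM titles carry no replicate numbers but pair 1 vehicle and 1 KLA library by label date in each strain, and with label date in place of strain the log2 fold change after KLA was -1.01 for Cebpa and 1.14 for Cebpb (limma-trend adjusted p = 0.352 and 0.442). With 2 libraries a group, or 1 in some TGEM groups, and 1553296 reads in the shallowest library, changes of genes with few reads carry the most counting error, such as Cebpd with 16 and 13 reads in the Scramble libraries, against which its change in Atf3KO is measured, and Cebpa with 28 and 27.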
